A study of Mus musculus with 3 samples.

Results

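Potassium channel genes were examined in RNA-seq gene counts from cultured mouse cortical neurons, as every protein-coding gene whose symbol begins with Kcn apart from Kcnj10. This choice gave 93 genes of the 54232 gene identifiers in the files, in 21 subfamilies by symbol prefix. The 3 libraries, 1 per group, all came from wildtype CD1 neurons and all carry the repeat number 3. IKVAV PA + PEDOT-S neurons grew on a peptide amphiphile scaffold, a self-assembling peptide material bearing the laminin sequence IKVAV, combined with a conducting polymer that the library name calls PEDOT-S_OH and the title PS2. That both names mean the same material is an assumption. IKVAV PA neurons had the scaffold without the polymer, and the PDL control neurons served as the control, with PDL not spelled out in the labels. The labels give neither the age of the cultures nor how many were pooled, and under treatment they name a peptide amphiphile for the PDL control too.

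Total counts were 79057998 for IKVAV PA + PEDOT-S, 124425958 for IKVAV PA and 78993105 for the PDL control. With 1 library per group there is no replicate error and no test, so every difference below describes these libraries and every interval covers counting error only. Neuronal markers summed to 7692, 7831 and 7753 normalised CPM (counts scaled to a common library size) in IKVAV PA + PEDOT-S, IKVAV PA and the PDL control, and none of 12 differed beyond the bound used below. By that bound at most 0.54% of the 13884 genes compared were higher and 3.76% lower in a pair. Scaling also puts the median gene near no difference, so equal neuronal content is not shown. In the same order of libraries, 8 cycling cell markers summed to 39.4, 42.1 and 127 CPM and 11 astrocyte markers to 252, 238 and 392 CPM. Slc1a2 alone held 153, 161 and 169 CPM of the astrocyte sums and stayed within the bound. Fabp7 (39.8, 29.5 and 112 CPM) and Slc1a3 (27.6, 24.9 and 57.8 CPM) were lower on both scaffolds. Gfap, at 1.39, 0.497 and 0.402 CPM, went the other way. RNA of other cell types was thus present, and in bulk RNA fewer cells of a type and less RNA per cell cannot be told apart. Microglial markers were near the limit of detection, with a sum of 3.12, 3.08 and 2.91 CPM over 10 genes.

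Potassium channels let potassium ions leave or enter a cell along their gradient, and so set the resting potential of neurons, repolarise the action potential and limit firing. Voltage-gated Kv channels open on depolarisation, Kir channels pass current more readily inward than outward, K2P channels carry background leak, and BK, SK and Slack channels are opened by calcium or sodium ions. Accessory subunits form no pore but alter gating, surface delivery or inactivation of the pore subunits.

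The pore subunits share a selectivity filter, a short loop that holds potassium ions in place of water. Its central codons are much alike across the pore classes. The lines below give the coding strand around the filter for members that recur in the results, with the codons for its central glycine, aromatic residue and glycine in capitals. Both pore loops are shown for the K2P genes, whose subunits each carry a pair of them.
Kcnd2: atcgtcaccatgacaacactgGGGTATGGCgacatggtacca
Kcna2: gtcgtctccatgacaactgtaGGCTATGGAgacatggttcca
Kcnf1: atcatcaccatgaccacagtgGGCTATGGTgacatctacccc
Kcnh7: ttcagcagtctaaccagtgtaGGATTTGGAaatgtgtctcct
Kcnma1: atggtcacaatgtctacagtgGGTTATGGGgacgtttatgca
Kcnj3: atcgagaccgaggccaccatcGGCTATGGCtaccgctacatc
Kcnk9 first loop: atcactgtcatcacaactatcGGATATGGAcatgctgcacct
Kcnk9 second loop: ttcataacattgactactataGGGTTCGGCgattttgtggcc
Kcnk12 first loop: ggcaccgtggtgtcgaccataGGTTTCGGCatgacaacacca
Kcnk12 second loop: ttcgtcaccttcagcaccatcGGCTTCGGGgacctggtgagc

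These 42-base stretches were read from GENCODE M21 transcripts on GRCm38. The stretches of Kcna2 (chr3:107105209-107105250, plus strand, exon 3), Kcnf1 (chr12:17175049-17175090, minus strand, exon 1) and Kcnh7 (chr2:62777331-62777372, minus strand, exon 8) each lie in 1 exon. So do those of Kcnma1 (chr14:23528401-23528442, minus strand, exon 8), Kcnj3 (chr2:55437612-55437653, plus strand, exon 2) and the second loops of Kcnk9 (chr15:72512707-72512748, minus strand, exon 2) and Kcnk12 (chr17:87746441-87746482, minus strand, exon 2). In Kcnd2 (chr6:21217391-21714153, plus strand, exons 1 and 2) and the first loops of Kcnk9 (chr15:72513025-72546018, minus strand, exons 1 and 2) and Kcnk12 (chr17:87746822-87797085, minus strand, exons 1 and 2) an intron splits the filter region. The codons are read in phenylalanine form (TTT or TTC) at the centre of both Kcnk12 loops, of the second Kcnk9 loop and of Kcnh7, and in tyrosine form (TAT) in the other stretches. The search looked in the translated coding sequence for threonine or serine, then valine, isoleucine, threonine, alanine or leucine, then glycine, then tyrosine, phenylalanine or leucine, then glycine. Leucine was allowed in the second place after a first search had missed the Kv3 and Kv4 genes. Such a signature was found in all 76 members of the pore classes and in none of the 17 accessory members, and all 14 K2P genes held it in 2 places. Because the pattern was widened to take in missed members, the full match follows in part from that choice. The second loops of Kcnk1, Kcnk6 and Kcnk7 matched only through leucine in place of the aromatic residue. Of 21747 protein-coding genes searched, 1.89% held it, so it is not specific to the family.

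Of the 93 members, 68 reached 1 CPM in at least 1 library and were compared, and the other 25 had at most 73 counts in any library. All members together took 0.260% of the counts of IKVAV PA + PEDOT-S, 0.271% of IKVAV PA and 0.271% of the PDL control. The summed level was 2625 CPM in IKVAV PA + PEDOT-S, 2706 CPM in IKVAV PA and 2692 CPM in the PDL control. The 5 members with most counts made up 41.0% of that sum on average. The family as a whole therefore lay within a few percent of the same level in the 3 libraries.

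Levels between genes were compared per kb of exon. Kcnd2, the Kv4 pore of the dendritic A-type current, was among the highest at 23.9 CPM per kb in IKVAV PA + PEDOT-S, 23.4 in IKVAV PA and 28.7 in the PDL control. Kcnq5, a subunit of the M-current that restrains repetitive firing, had 15.7 CPM per kb in IKVAV PA + PEDOT-S, 17.4 in IKVAV PA and 17.9 in the PDL control. Its range overlapped that of Kcnj3, the GIRK1 subunit of G protein-gated inward rectifiers (16.1, 14.6 and 18.7 CPM per kb). Kcnj4, a Kir2 inward rectifier, and Kcnk9, the acid-sensitive leak channel TASK-3, came next.

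Among the 20 highest members, 16 of the 19 neighbouring pairs in this order overlapped in their range over libraries. The 3 gaps lay between Kcnd2 and Kcnq5, between Kcnk9 and Kcnma1, and between Kcnc1 and Kcnk2. Positions 7 to 11 were held by Kcnma1, the BK channel pore, Kcnk10, the mechanosensitive leak channel TREK-2, Kcnf1, an electrically silent subunit, Kcnd3, a second Kv4 pore, and Kcnc1, the Kv3 pore of fast-spiking cells. All of these stood between 10.3 and 12.5 CPM per kb in every library. Also among the 20 were Kcnk2, Kcna3, Kcnab2, Kcna6, Kcnj2, Kcnv1, Kcnk1 and Kcnq3.

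**Figure D1:**
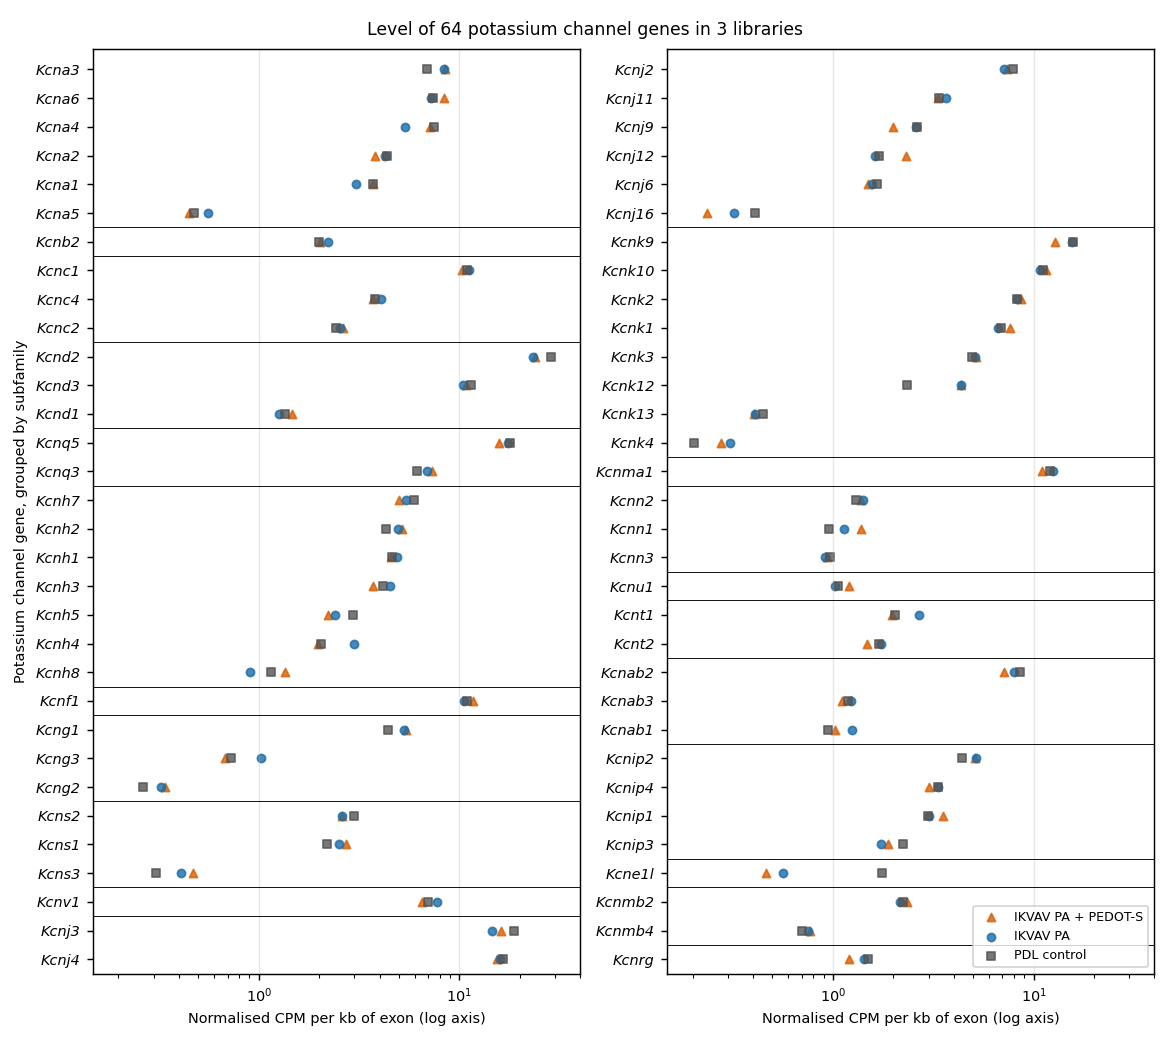
Normalised CPM per kb of exon (log axis) of 64 of the compared potassium channel genes, grouped by subfamily, in IKVAV PA + PEDOT-S (triangles), IKVAV PA (circles) and the PDL control (squares). The symbols of a gene mostly lie together, as for Kcnj4 at 15.4, 15.9 and 16.5, and stand apart for Kcne1l and Kcnk12.

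A member was counted as higher or lower when the 95% counting interval of its ratio lay wholly beyond 1.5-fold. Kcnk12 was higher and Kcne1l lower in both scaffold libraries than in the PDL control, and no member differed beyond the bound between the scaffolds. Kcne1l reached 1 CPM in the PDL control alone, so it was compared only because it was high there, and against that library it could not have been counted as higher. For IKVAV PA + PEDOT-S against the PDL control, 1 of 68 members was higher and 1 lower, where the background over all 13884 genes compared was 0.447% higher and 3.76% lower. For IKVAV PA against the PDL control the counts were again 1 higher and 1 lower, against a background of 0.54% and 3.42%. Between IKVAV PA + PEDOT-S and IKVAV PA no member was counted, against a background of 0.331% higher and 2.02% lower. Counts of 1 or 0 in 68 are too small to be told from these backgrounds. The 2 comparisons with the PDL control share that library, so they are not independent of each other. The background changed with the rule. Beyond 2-fold it was 0.0936% higher and 1.86% lower for IKVAV PA + PEDOT-S against the PDL control, 0.0648% and 1.58% for IKVAV PA against the PDL control, and 0.0504% and 0.54% between the scaffolds. Over all 54232 identifiers with no filter it was 0.455% and 2.0%, 0.892% and 1.56%, and 0.424% and 2.07% in the same order.

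Kcnk12 encodes THIK-2, a K2P leak subunit that gives little current by itself in expression systems. The gene lies on chr17:87745801-87797994 (minus strand). It had 669 counts in IKVAV PA + PEDOT-S, 1064 in IKVAV PA and 369 in the PDL control, or 8.55, 8.54 and 4.63 CPM. Both scaffold libraries stood at the same level and above the control. The ratio to the PDL control was 1.84 for IKVAV PA + PEDOT-S (interval 1.62 to 2.10) and 1.84 for IKVAV PA (1.64 to 2.08), and that between the scaffolds was 1.001 (0.907 to 1.10). Kcnk13, the closely related THIK-1, was weakly expressed at 1.26, 1.27 and 1.39 CPM in IKVAV PA + PEDOT-S, IKVAV PA and the PDL control, with a ratio of 0.908 to the PDL control for IKVAV PA + PEDOT-S (0.685 to 1.20).

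Kcne1l, also known as Kcne5, encodes a single-span accessory subunit that in expression systems suppresses Kcnq1 current. It lies on chrX:142304752-142306294 (minus strand). Its counts were 56 in IKVAV PA + PEDOT-S, 109 in IKVAV PA and 216 in the PDL control, or 0.715, 0.875 and 2.71 CPM, so both scaffold libraries were below the control. It passed the filter through the PDL control alone, so its low values on the scaffolds are partly a matter of how it was chosen. The ratio to the PDL control was 0.264 for IKVAV PA + PEDOT-S (interval 0.193 to 0.355) and 0.323 for IKVAV PA (0.254 to 0.408). Between the scaffolds it was 0.818 (0.582 to 1.139), an interval that includes no difference. Kcnq1 itself had only 3, 5 and 8 counts in IKVAV PA + PEDOT-S, IKVAV PA and the PDL control. All 8 cycling cell markers were also lower in both scaffold libraries than in the PDL control. Of 9 compared astrocyte markers 4 were lower and 1 higher in IKVAV PA + PEDOT-S, and 7 lower in IKVAV PA. Pericyte and smooth muscle markers summed to 18.6 CPM in IKVAV PA + PEDOT-S, 39.8 in IKVAV PA and 99.4 in the PDL control, with 4 of 4 compared lower in IKVAV PA + PEDOT-S and 3 of 4 in IKVAV PA. Meningeal fibroblast markers summed to 29.0, 40.9 and 74.8 CPM, with 5 of 6 and 3 of 6 lower, and endothelial markers to 4.14, 4.72 and 7.28 CPM, with 2 of 3 and 1 of 3 lower. Of 12 oligodendrocyte lineage markers (107, 81.6 and 110 CPM summed), 6 were higher and 4 lower in IKVAV PA + PEDOT-S, and 3 higher and 4 lower in IKVAV PA. Some of these markers were themselves compared through 1 library alone. Gfap and Mal, counted as higher, passed the filter only through IKVAV PA + PEDOT-S. Aqp4 and Flt1, counted as lower, passed it only through the PDL control. Their part in these counts is thus partly a matter of how they were chosen. The part of these cell types in the values of Kcnk12 and Kcne1l was not tested. The other Kcne genes (Kcne1, Kcne2, Kcne3 and Kcne4) had 0 to 22 counts.

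A further 8 members had a counting interval wholly beyond a smaller bound, 0.32 on the log2 scale, in at least 1 pair without reaching the 1.5-fold bound. With Kcnk12 and Kcne1l these are 10 of 68 members, or 14.7%, where 14.1% of all genes compared passed the smaller bound in at least 1 pair, so the share of members was near the background. By pair and direction the background was 1.85% higher and 6.62% lower for IKVAV PA + PEDOT-S against the PDL control, 2.11% and 5.75% for IKVAV PA against the PDL control, and 1.54% and 4.83% between the scaffolds. In Kcnh4, Kcng3 and Kcnt1 the IKVAV PA library was the high one. Kcnh4, a Kv12 channel of the forebrain, had 7.83 CPM in IKVAV PA + PEDOT-S, 11.8 in IKVAV PA and 8.12 in the PDL control, with a ratio between the scaffolds of 0.664 (interval 0.604 to 0.731). Kcnt1, the sodium-activated channel Slack, stood at 18.7, 25.6 and 19.3 CPM in the same order, a ratio of 0.729 (0.685 to 0.776) between the scaffolds. Kcng3, an electrically silent Kv6 subunit, had 2.29, 3.45 and 2.45 CPM (0.663, 0.554 to 0.791).

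Kcna4 and Kcnh8 showed the opposite arrangement, with IKVAV PA the low library. Kcna4, the fast-inactivating Kv1.4 pore, had 34.5 CPM in IKVAV PA + PEDOT-S, 25.9 in IKVAV PA and 36.1 in the PDL control. The ratio was 1.33 between the scaffolds (interval 1.26 to 1.40) and 0.719 for IKVAV PA against the PDL control (0.683 to 0.756). Kcnh8, another Kv12 channel, had 6.13, 4.11 and 5.27 CPM, and at 1.49 (1.32 to 1.69) the highest ratio between the scaffolds among the 68 compared members. Taking counting error alone, with intervals that exclude equality on both sides, IKVAV PA was above both other libraries in 12 of 68 members and below both in 5. Those shares of 17.6% and 7.35% compare with 15.1% and 14.3% of all genes compared. Beside this, genes that are not protein-coding had a median log2 ratio of -0.12 between IKVAV PA + PEDOT-S and IKVAV PA, against 0.01 for protein-coding genes, and the part of this in the values of Kcnh4, Kcng3 and Kcnt1 was not tested.

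In Kcnj12 and Kcnn1 the IKVAV PA + PEDOT-S library was the high one. Kcnj12, the Kir2.2 inward rectifier, had 6.34 CPM in IKVAV PA + PEDOT-S, 4.46 in IKVAV PA and 4.67 in the PDL control, with a ratio of 1.42 (interval 1.26 to 1.61) between the scaffolds. Kcnn1, the SK1 channel opened by calcium through calmodulin, had 6.32, 5.20 and 4.38 CPM, and a ratio of 1.44 (1.26 to 1.66) for IKVAV PA + PEDOT-S against the PDL control. Kcnj16, the Kir5.1 subunit that pairs with other Kir pores in glia and kidney, was lowest with PEDOT-S at 0.933 CPM, against 1.26 in IKVAV PA and 1.61 in the PDL control. Its ratio of 0.580 for IKVAV PA + PEDOT-S against the PDL control had an interval of 0.429 to 0.780, which reached inside 1.5-fold. Kcnj16 passed the filter through IKVAV PA and the PDL control alone, so its low value with PEDOT-S is partly a matter of that choice.

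**Figure D2:**
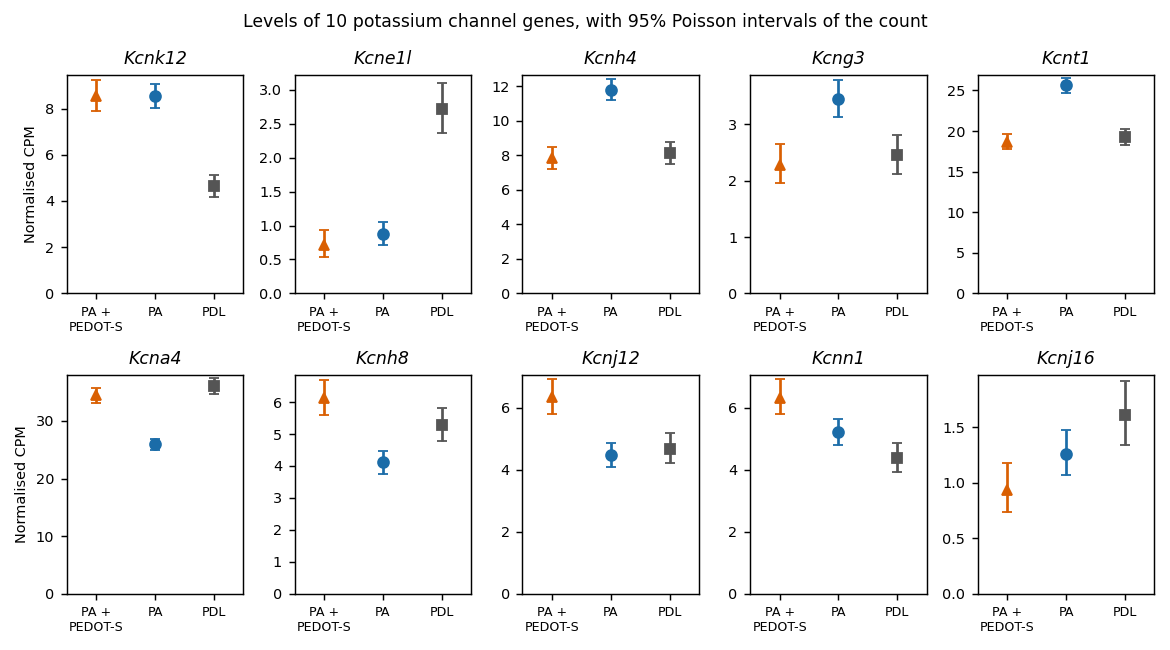
Normalised CPM (linear axes from 0) in IKVAV PA + PEDOT-S, IKVAV PA and the PDL control for the 10 members whose counting interval passed 0.32 on the log2 scale in any pair, with 95% Poisson intervals of the count. Kcnk12 is at 8.55 and 8.54 on the scaffolds against 4.63 in the control, and Kcne1l at 0.715 and 0.875 against 2.71.

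Over the compared members, ratios were centred near no difference. The median log2 ratio (prior count 2) was -0.02 for IKVAV PA + PEDOT-S against the PDL control, 0.02 for IKVAV PA against the PDL control and -0.00 between the scaffolds, beside -0.00, 0.00 and 0.01 for all 13884 genes. The middle range from lower to upper quartile ran from -0.15 to 0.15, -0.08 to 0.16 and -0.16 to 0.09 for members, and from -0.14 to 0.10, -0.11 to 0.10 and -0.13 to 0.11 for all genes. Of the 68 members 31, 35 and 33 had a positive ratio in these comparisons, or 45.6%, 51.5% and 48.5%, against 49.4%, 50.04% and 51.7% of all genes. Ratios within 0.32 of 0 on the log2 scale made up 85.3%, 80.9% and 88.2% of members and 82.3%, 84.1% and 84.9% of all genes. In 50 of the 68 members all 3 pairwise ratios were within that range, and in 61 within 1.5-fold. The same counts were not made over all genes, so they show nothing particular to the family. Since scaling puts the median gene near no difference, these figures cannot show whether potassium channel RNA as a whole differed per cell.

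**Figure D3:**
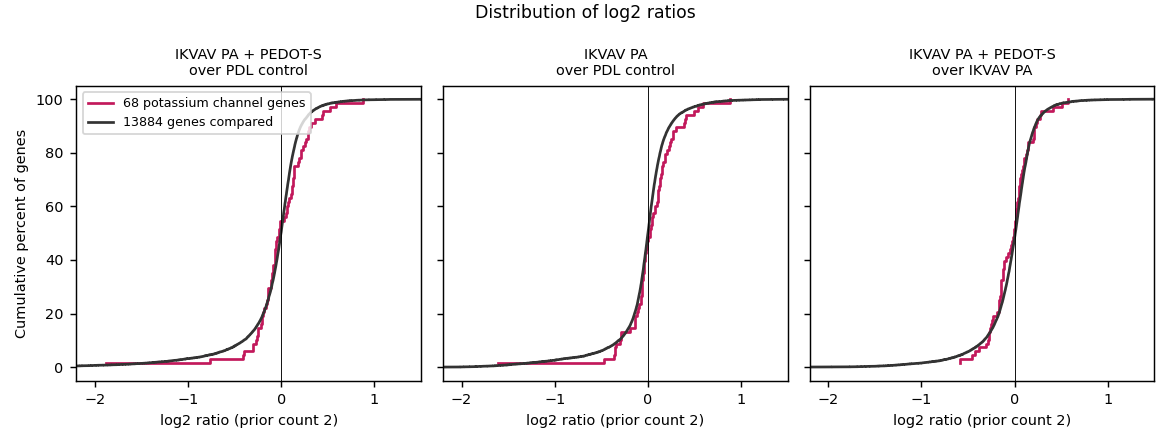
Cumulative percent of genes by log2 ratio (prior count 2) for the 68 potassium channel genes and the 13884 genes compared, for each pair of libraries. The curves cross 50% close to 0 in each panel, with member medians of -0.02, 0.02 and -0.00.

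Voltage-gated pores carried most of the family's counts. The 30 Kv pore members, of which 26 were compared, summed to 1572 CPM in IKVAV PA + PEDOT-S, 1597 in IKVAV PA and 1574 in the PDL control, or 59.9%, 59.0% and 58.5% of the family. Kcnq, the Kv7 subfamily, was the largest by summed counts at 712 CPM in IKVAV PA + PEDOT-S, 726 in IKVAV PA and 670 in the PDL control. It was 1.06 times the PDL control in IKVAV PA + PEDOT-S (interval 1.05 to 1.08) and 1.08 times in IKVAV PA (1.07 to 1.10).

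Within Kv7, Kcnq3 was slightly higher on both scaffolds while Kcnq5 was not. Kcnq3, a subunit of the classical M-channel, had 107 CPM in IKVAV PA + PEDOT-S, 101 in IKVAV PA and 90.7 in the PDL control, a ratio to the control of 1.18 (interval 1.142 to 1.22) and 1.12 (1.09 to 1.15). Kcnq5 stood at 121, 134 and 138 CPM, with 0.877 (0.853 to 0.901) for IKVAV PA + PEDOT-S against the PDL control. These ratios are well inside the 1.5-fold bound, and differences of this size between cultures of 1 group could not be measured here.

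The Kv4 subfamily Kcnd, which carries the A-type current, had 235 CPM in IKVAV PA + PEDOT-S, 227 in IKVAV PA and 264 in the PDL control, and so was lower on both scaffolds, at 0.890 (interval 0.872 to 0.908) and 0.862 (0.847 to 0.878) of the control. Most of this lay in Kcnd2, with 123 CPM in IKVAV PA + PEDOT-S, 120 in IKVAV PA and 148 in the PDL control. Without Kcnd2 the Kcnd sum was 0.961 and 0.921 of the control. Kcnd3 had 104, 100 and 109 CPM, and Kcnd1 7.75, 6.69 and 7.18. Of its KChIP subunits, calcium sensors that bind the Kv4 amino terminus, Kcnip1 stood at 21.9, 18.6 and 18.4 CPM and Kcnip2 at 17.7, 17.9 and 15.3 CPM. Kcnip3, also the transcriptional repressor DREAM, was lower on the scaffolds at 6.64 and 6.18 CPM, against 7.92 in the PDL control. Its ratios stayed within the 1.5-fold bound. Kcnip4 had 10.9, 12.1 and 12.2 CPM. The KChIP genes together summed to 57.2, 54.8 and 53.8 CPM in IKVAV PA + PEDOT-S, IKVAV PA and the PDL control.

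For the axonal Kv1 subfamily Kcna the sums were 165 CPM in IKVAV PA + PEDOT-S, 152 in IKVAV PA and 165 in the PDL control. Kcna2 had the most counts in IKVAV PA and the PDL control (45.3, 51.0 and 52.2 CPM in the same order of libraries), but per kb of exon Kcna3 had the highest mean level, with 8.46, 8.35 and 6.90 CPM per kb. In the PDL control Kcna4 (7.46) and Kcna6 (7.39) were above it. Kcna1, the subunit mutated in episodic ataxia, stood at 17.7, 14.6 and 17.8 CPM. Kcna6 had 49.8, 43.0 and 44.0 CPM, but shares 39.6% of its exonic bases with another annotated gene and is uncertain. Kcna5 was weak at 1.29, 1.60 and 1.36 CPM, Kcna7 had 3 to 7 counts, and Kcna10, an epithelial and inner-ear channel, had none. The beta subunits of Kv1, which are oxidoreductase-like proteins, were led by Kcnab2 at 39.7, 44.6 and 47.8 CPM. Kcnab1, which confers fast inactivation, stood at 8.84, 10.6 and 8.11 CPM, and Kcnab3 at 3.17, 3.52 and 3.41 CPM.

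Kcnb2, a Kv2 delayed rectifier, had 30.8 CPM in IKVAV PA + PEDOT-S, 33.4 in IKVAV PA and 30.1 in the PDL control. The Kv3 genes, whose channels allow fast spiking, summed to 172, 186 and 179 CPM, with Kcnc1 first at 97.0, 105 and 103 CPM. Among the EAG, ERG and ELK genes of the Kcnh subfamily Kcnh7 led at 76.2, 82.2 and 90.8 CPM, and Kcnh2, the ERG1 channel also found in heart, stood at 25.1, 24.1 and 20.95 CPM. Kcnh5 had 8.97 CPM with PEDOT-S, 9.78 in IKVAV PA and 11.9 in the PDL control. Its ratios to the control of 0.752 (interval 0.681 to 0.830) with PEDOT-S and 0.820 (0.753 to 0.894) in IKVAV PA stayed within the bound. Kcnh1 (33.5, 35.8 and 34.0 CPM) and Kcnh3 (21.4, 25.8 and 24.0 CPM) also stayed within the bound, and Kcnh6 had 36, 66 and 44 counts.

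Electrically silent subunits, which act only in tetramers with Kv2, made up 10 members and summed to 137 CPM in IKVAV PA + PEDOT-S, 137 in IKVAV PA and 131 in the PDL control. Kcnf1 led them at 55.8, 50.4 and 52.1 CPM, followed by Kcnv1 at 29.8, 35.5 and 32.1 CPM and Kcng1 at 24.4, 24.0 and 19.9 CPM. Kcns2 had 14.5, 14.6 and 16.7 CPM. Kcns3, which is weak here at 1.48, 1.29 and 0.979 CPM, had a ratio of 1.51 for IKVAV PA + PEDOT-S against the PDL control with a wide interval of 1.13 to 2.04. Kcns3 passed the filter through the scaffold libraries alone, so this ratio is partly a matter of how it was chosen. Kcng4 and Kcnv2 had at most 6 counts in any library.

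**Figure D4:**
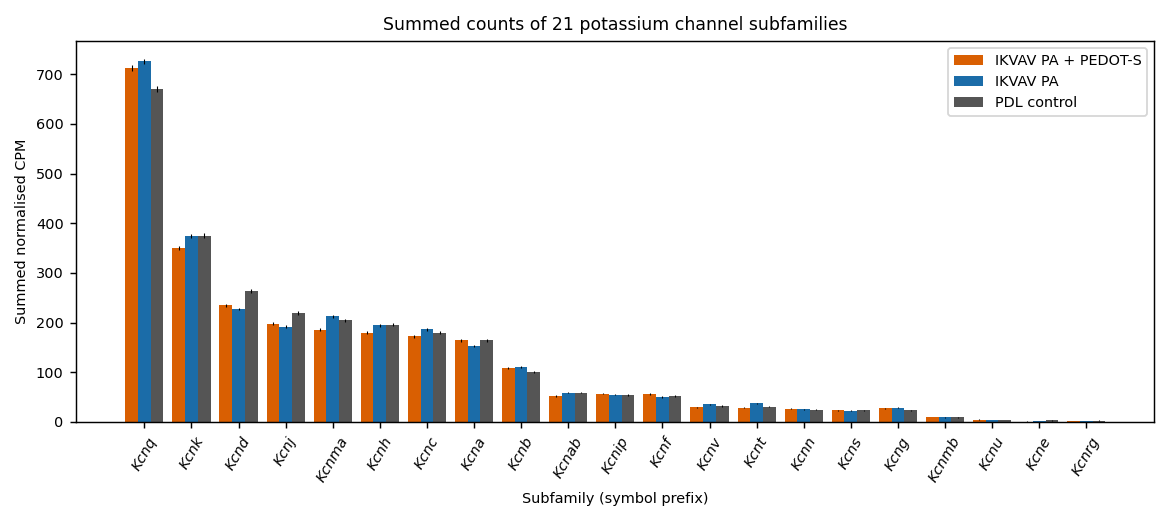
Summed normalised CPM (axis from 0) of each of the 21 subfamilies in IKVAV PA + PEDOT-S, IKVAV PA and the PDL control, ordered by the control, with 95% Poisson intervals of the summed count. Kcnq is the tallest group at 712, 726 and 670 CPM, and Kcnd and Kcnj are lower on both scaffolds than in the control but within 1.5-fold. Only Kcne, mostly Kcne1l, passes that bound against the control, at 0.296 in IKVAV PA + PEDOT-S and 0.400 in IKVAV PA. Kcng has the highest ratios to the control, at 1.19 and 1.22 in the same order.

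Inward rectifiers split into groups with different roles. The Kcnj subfamily summed to 198 CPM in IKVAV PA + PEDOT-S, 192 in IKVAV PA and 219 in the PDL control, at 0.901 (interval 0.882 to 0.921) and 0.875 (0.858 to 0.892) of the control. The G protein-gated subunit Kcnj3 had 84.0 CPM in IKVAV PA + PEDOT-S, 75.9 in IKVAV PA and 97.7 in the PDL control, but 31.1% of its exonic bases are shared with another annotated gene. Without Kcnj3 the Kcnj sum was 0.935 of the control in IKVAV PA + PEDOT-S and 0.954 in IKVAV PA. Its partners Kcnj6 (GIRK2) and Kcnj9 (GIRK3) stood at 11.4, 11.96 and 12.6 CPM and at 8.51, 11.1 and 11.2 CPM. Kcnj9 was thus lower with PEDOT-S, at 0.765 of IKVAV PA (0.696 to 0.839). The Kir2 genes Kcnj2 and Kcnj4 were close together across libraries, at 40.2, 38.7 and 42.8 CPM and at 33.2, 34.3 and 35.4 CPM. Kcnj11, the Kir6.2 pore of the ATP-sensitive channel, had 12.3, 13.5 and 12.5 CPM.

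The other 6 inward rectifiers were below the filter. They were Kcnj14 (0.703, 0.586 and 0.829 CPM in IKVAV PA + PEDOT-S, IKVAV PA and the PDL control), the closest to it, and Kcnj1, Kcnj5, Kcnj8, Kcnj13 and Kcnj15. Kcnj8, the pore of the vascular ATP-sensitive channel of mural cells, had 0, 0 and 1 counts. Acta2 made up most of the pericyte and smooth muscle marker sum. It had 9.99 CPM in IKVAV PA + PEDOT-S, 26.5 in IKVAV PA and 78.6 in the PDL control. Pdgfrb, Rgs5 and Notch3 also passed the filter, while Des, Tagln, Myh11 and Vtn did not. Whether mural cells were present was not tested. Kcnj5 (GIRK4) had 22 counts in IKVAV PA + PEDOT-S, 16 in IKVAV PA and 3 in the PDL control, with a ratio of 7.46 for IKVAV PA + PEDOT-S against the PDL control and an interval of 2.24 to 38.9.

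Leak channels of the Kcnk subfamily summed to 351 CPM in IKVAV PA + PEDOT-S, 374 in IKVAV PA and 375 in the PDL control, and 8 of 14 were compared. Kcnk9 carried 49.4% of that sum on average, at 158 CPM in IKVAV PA + PEDOT-S, 191 in IKVAV PA and 194 in the PDL control. Its ratio of 0.813 for IKVAV PA + PEDOT-S against the PDL control (interval 0.793 to 0.832) and of 0.824 against IKVAV PA (0.806 to 0.842) went with the lower sum with PEDOT-S. Kcnk10 and Kcnk2, the TREK channels, lay at 101, 94.9 and 97.5 CPM and at 42.8, 40.7 and 40.8 CPM. Kcnk1 (TWIK-1) had 17.1, 14.8 and 15.5 CPM and Kcnk3 (TASK-1) 20.6, 20.3 and 19.7. Kcnk4, the TRAAK channel, was weak at 1.24, 1.37 and 0.904 CPM, with a ratio of 1.52 for IKVAV PA against the PDL control (1.15 to 2.03), and shares 13.1% of its exonic bases with another gene. Kcnk4 passed the filter through the scaffold libraries alone, so its high ratio is partly a matter of how it was chosen. Below the filter, Kcnk5 had 27, 19 and 27 counts, Kcnk6 28, 40 and 14, and Kcnk15 11, 12 and 3. Kcnk7 and Kcnk18 had at most 28 counts, and Kcnk16 had none.

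Calcium- and sodium-activated pores were led by Kcnma1, the BK channel, with 186 CPM in IKVAV PA + PEDOT-S, 213 in IKVAV PA and 205 in the PDL control. Its ratio was 0.909 for IKVAV PA + PEDOT-S against the PDL control (interval 0.889 to 0.930) and 0.874 against IKVAV PA (0.857 to 0.892). BK beta subunits were far weaker in counts, with Kcnmb2 at 7.36, 6.75 and 7.03 CPM and Kcnmb4, the neuronal form, at 2.56, 2.51 and 2.32 CPM. Kcnmb4 shares 31.5% of its exonic bases, antisense genes included. Kcnmb1, the smooth muscle form, had 1 count in IKVAV PA + PEDOT-S, 18 in IKVAV PA and 21 in the PDL control, and Kcnmb3 had 3 or 4. The SK genes Kcnn2 and Kcnn3 stood at 10.3, 10.6 and 9.69 CPM and at 9.73, 9.60 and 10.1 CPM, while Kcnn4, of blood cells and epithelia, had 0 to 2 counts. Kcnt2 (Slick) had 10.2, 11.96 and 11.7 CPM. Kcnu1, known as the sperm channel Slo3, was listed at 4.52, 3.84 and 3.97 CPM.

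**Figure D5:**
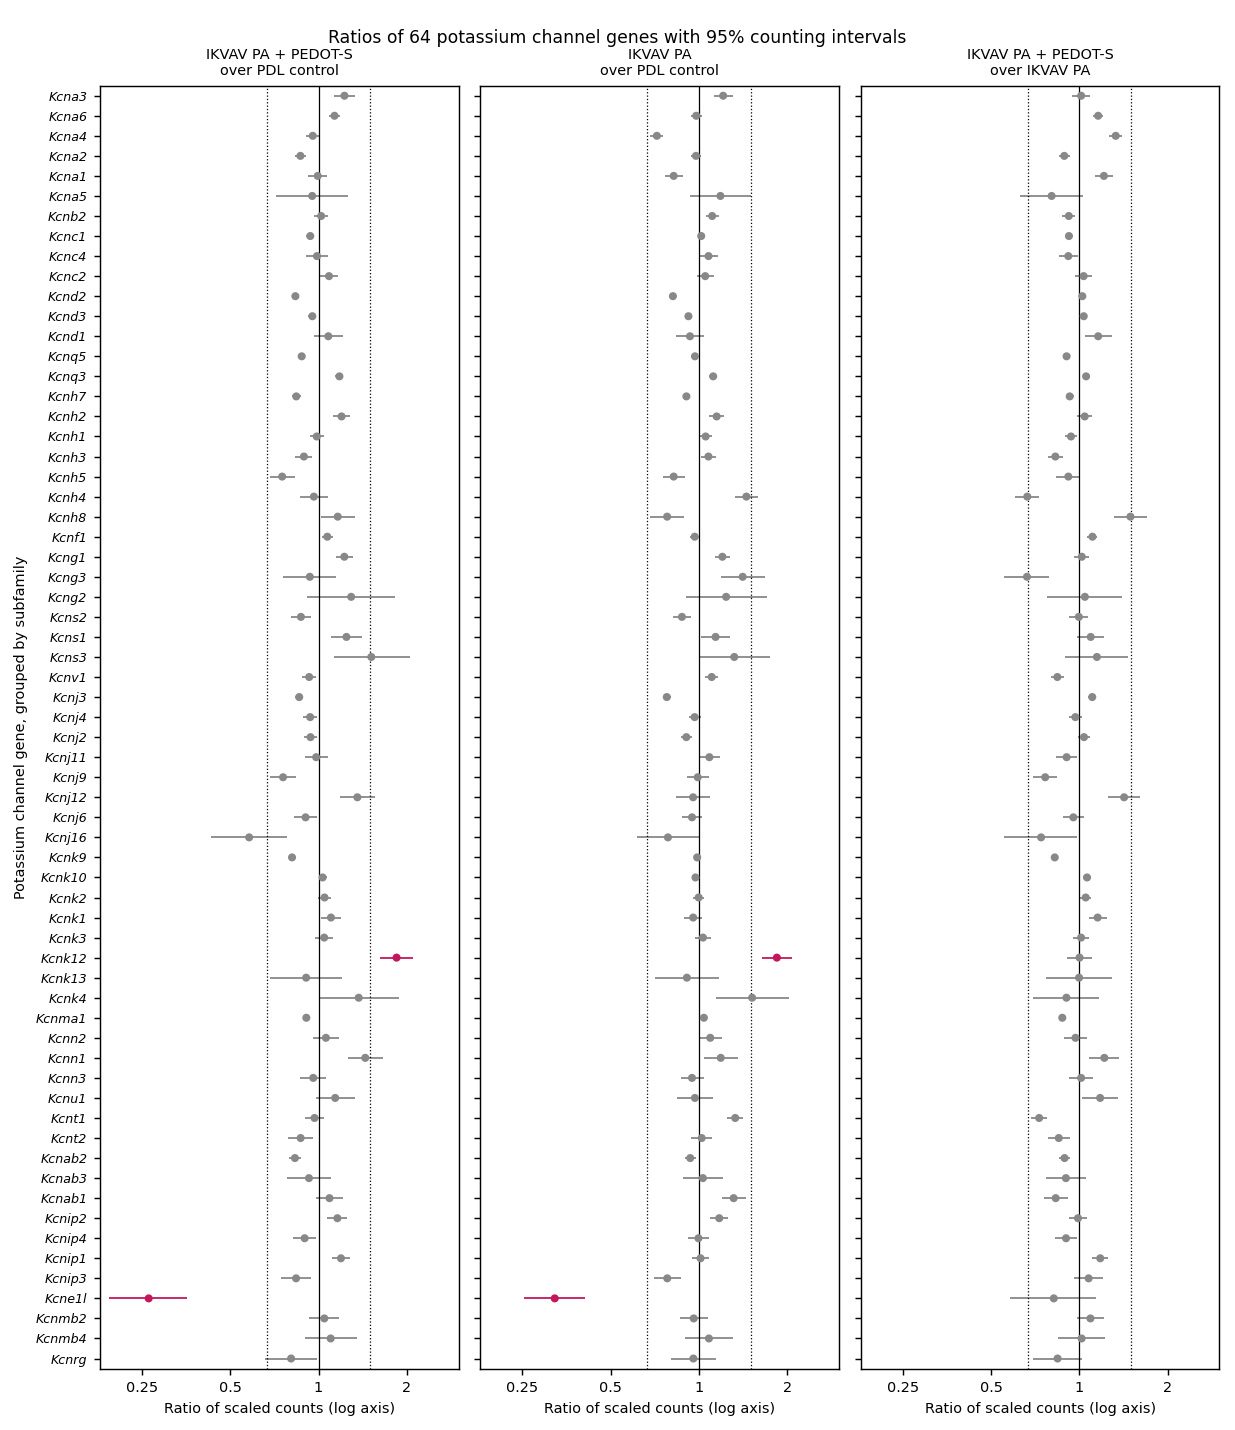
Ratio of scaled counts (log axis) for 64 of the compared members in each pair of libraries, with 95% counting intervals and dotted lines at 1.5-fold. Intervals wholly past a dotted line are drawn in colour, which are Kcnk12 at 1.84 and Kcne1l at 0.264 and 0.323 against the PDL control, and none between the scaffolds.

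Proteins that anchor or assist the channels were likewise within the bound. In each pair at most 0.54% of all 13884 genes compared were higher and 3.76% lower, so lists this short do not set these genes apart. None of the 10 compared Kv1 partners passed the 1.5-fold bound in any pair, among them Cntnap2, which clusters Kv1 beside the node of Ranvier (123, 133 and 141 CPM in IKVAV PA + PEDOT-S, IKVAV PA and the PDL control). Nor did the Kv4 partners Dpp6 (155, 166 and 163 CPM) and Dpp10, the 5 Kv2 partners, the 4 ankyrin and spectrin anchors or the 6 genes of HCN channels and their partners, which carry the pacemaker current. In that last group Hcn2 stood at 78.4, 70.2 and 59.9 CPM. Its ratio for IKVAV PA + PEDOT-S against the PDL control was 1.31 (counting interval 1.26 to 1.36), so within the bound does not mean equal. Of BK gamma subunits only Lrrc55 (38.9, 35.9 and 42.1 CPM) was above 2 CPM. Abcc8, the sulfonylurea receptor that completes the channel of Kcnj11, had 9.59, 13.4 and 9.74 CPM.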

How the data were processed

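The deposited files give whole-number counts per Ensembl gene for 3 libraries, not normalised by the authors. The submitters' processing notes name DESeq2 1.14.1, HTSeq 2.0.2, STAR 2.7.5 and cutadapt 4.2, and mm10 as the genome. Which annotation release, strand setting and filters were used is not given in the sources used here, so overlapping and antisense genes cannot be told apart. The labels' protocols name a total RNA kit, while their molecule field reads polyA RNA. GENCODE M21 (GRCm38) supplied symbols, positions and exon lengths for 54165 of the 54232 identifiers.

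Counts were scaled with TMM factors (edgeR 4.0.16, R 4.3.3) of 0.990 for IKVAV PA + PEDOT-S, 1.00 for IKVAV PA and 1.01 for the PDL control. Genes with at least 1 CPM in at least 1 library (13884) were compared. Ratios have 95% exact (Clopper-Pearson) binomial counting intervals (scipy 1.17.1). No molecular identifiers are mentioned, so reads may repeat a molecule. Levels of single libraries have exact Poisson intervals. The calculation was also run on simulated Poisson counts, the counting error that the intervals assume. The simulation held no variation between cultures, so it cannot show how far the calls would repeat. Named genes are members counted or extreme in a pair, the highest overall and per subfamily, and members with no count (Kcna10, Kcnk16). Others are named after their values were seen. The members and lists were chosen with earlier results of these data known. Subfamilies follow symbol prefixes. Some members and listed genes are not reported individually here.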

Additional observations from a re-analysis of the deposited data

How the results depend on the processing

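No paired analysis was possible because each group has 1 library. Under DESeq2 1.42.0 size factors, unscaled totals, thinning to the smallest library, TMM factors from protein-coding genes (chosen after seeing the data) and leaving out members with shared exons, every count of higher or lower members was the same. Against the PDL control, 2-fold bounds left 0 higher members in either comparison, and a filter of 5 CPM left 0 lower members, since Kcne1l is under 5 CPM. With no filter 93 members were compared. Against the PDL control, 2 each were higher in IKVAV PA (Kcnk12, Kcnk7) and in IKVAV PA + PEDOT-S (Kcnk12, Kcnj5), beside 0.892% and 0.455% of all identifiers. In IKVAV PA + PEDOT-S 2 were lower than in the PDL control (Kcne1l, Kcnmb1) and 2 lower than in IKVAV PA (Kcnk7, Kcnmb1), beside 2.0% and 2.07%. In the PDL control Kcnk7 had 2 counts and Kcnj5 had 3. With a bound of 0.32 on the log2 scale, 2 of the 68 members were higher and 2 lower in IKVAV PA + PEDOT-S than in the PDL control, 3 higher and 2 lower in IKVAV PA than in the PDL control, and 3 higher and 3 lower between the scaffolds. The shares of all genes compared under that bound are given in the Results. The 27 alternative medians moved by less than the typical counting interval of a member. The summed ratio of all members was 0.975 for IKVAV PA + PEDOT-S against the PDL control, 0.958 with unscaled totals and 0.953 without the member with most counts. For IKVAV PA against the PDL control it was 1.01, and 0.999 with unscaled totals, 1.01 without shared exons, 0.986 without the member with most counts and 1.01 with protein-coding factors. Between the scaffolds it was 0.970, and 0.959 with unscaled totals, 0.963 without shared exons and 0.961 with protein-coding factors. The Kcne sum in IKVAV PA against the PDL control turned from 0.400 to 1.07 without Kcne1l, its only compared member. Another 42 alternative values of subfamily ratios lay beyond the counting interval, 34 of them when the member with most counts was left out, 5 without shared exons and 3 with unscaled totals. Depth limits the 25 members below the filter.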

Other observations

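Genes named after potassium channels but annotated as antisense RNAs were not part of the family above. Kcnq1ot1, a long nuclear RNA of the imprinted Kcnq1 locus, had 20.1 CPM in IKVAV PA + PEDOT-S, 54.6 in IKVAV PA and 33.3 in the PDL control. Its ratio to the PDL control was 0.603 for IKVAV PA + PEDOT-S (95% counting interval 0.566 to 0.642) and 1.64 for IKVAV PA (1.57 to 1.72), so it passed 1.5-fold in opposite directions, and between the scaffolds it was 0.368. Genes that are not protein-coding had median log2 ratios of -0.06, 0.09 and -0.12 in these pairs. Between the scaffolds 136 of 1394 were lower, against 144 of 12490 protein-coding genes. Whether Kcnq1ot1 differs from this wider shift was not tested. Kcnmb4os2, which overlaps Kcnmb4, stood at 4.46 CPM in IKVAV PA + PEDOT-S, 4.22 in IKVAV PA and 3.43 in the PDL control. Kcnd3os, Kcnab3os and Kcnmb4os1 were below the filter.

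Of the members below the filter, Kcnk7 had 1 count in IKVAV PA + PEDOT-S, 28 in IKVAV PA and 2 in the PDL control. Its ratio for IKVAV PA against the PDL control was 8.95 with a counting interval of 2.26 to 77.5.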
